A study of Mus musculus with 16 samples.

Results

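The genes described here encode the proteins of the cytosolic ribosome. They were chosen by name, as the entries of the table named Rpl or Rps with a number, or Rplp0, Rplp1, Rplp2 and Rpsa, without pseudogene entries and without the Rps6 kinases, at a mean of at least 1 FPKM over all mice. FPKM is the number of fragments of a gene scaled by transcript length and by the mapped fragments of the library. Of 81 entries that matched by name, 80 passed the filter, out of 10519 genes that passed it in the whole table. By name, 45 of the 80 belong to the large subunit, 32 to the small subunit and 3 to the stalk (Rplp0, Rplp1 and Rplp2). Rpl39l, at a mean of 0.33 FPKM, was the 1 entry left out, and Rpl13a shares its entry with Mir5121 and Snord33 and so did not match the rule.

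Poly(A) RNA of whole quadriceps muscles was sequenced from 16 male C57BL/6J mice aged 13 to 15 weeks, 4 in each of exercised VV, sedentary VV, exercised MM (WT) and sedentary MM (WT). VV mice are homozygous for a knock-in in Camk2g, the gene of CaMKIIγ, in which a pair of neighbouring methionines is replaced by valines, in every cell that expresses the gene. MM (WT) mice are their wild-type littermates. Each mouse is named here by the number that its title carries (2161-5, for example). For the exercised groups the muscle was taken 3 h after a treadmill run of 350 m, without access to food in between, and sedentary mice did not do this run. The paper states that food had already been withdrawn in the morning, before the run. It also states that mice were acclimated to the treadmill in short sessions on earlier days and then rested. The comparisons ask whether ribosomal protein transcripts differ after a single run, whether they differ between genotypes, and whether the exercise effect differs between genotypes.

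Ribosomes translate mRNA into protein. Each holds 1 copy of nearly every ribosomal protein on a scaffold of ribosomal RNA, the small subunit reads the message, and the large subunit joins the amino acids. The stalk of the large subunit, which recruits the translation factors that hydrolyse GTP, carries several copies of P1 and P2 on P0. Ribosomal protein mRNAs are among the most abundant of growing and resting cells. In vertebrates they begin with a terminal oligopyrimidine tract (5′TOP), a run of C and T at the transcription start through which mTORC1 signalling controls their translation. That control acts mainly on translation, which the sequencing of mRNA does not measure. In muscle, a larger number of ribosomes is a known part of growth after loading.

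The start sequences of some of these genes are shown first, since the pyrimidine tract is the feature through which they are known to be controlled together. RefSeq promoter windows of the mouse assembly GRCm38.p6 were matched for 60 of the 80 genes. A run of at least 8 C or T lay across or beside the annotated start in 23 of the 60 (38.3%), against 12.0% of all 12643 genes with a window. Here and for the motifs below, a gene with several annotated starts was counted if any of them matched. Each of the next lines gives 12 bases before and 18 bases from the annotated start, 5′ to 3′ on the strand of the gene, with the pyrimidine run at the start in capitals. The first 7 carry the run at the start shown, and Rpl10 is shown as a gene whose annotated start has none. Another annotated start of Rps24 (chr14:24490741-24490770) has a run of only 2.
Rpl27a (chr7:109519183-109519212, plus strand): ttcgtgagCTCCTCCCTTTTCCCTTTCTgc
Rpl35 (chr2:39005114-39005143, minus strand): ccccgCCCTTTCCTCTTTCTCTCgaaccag
Rpl15 (chr14:18270969-18270998, minus strand): ggagaaagCCTTCTTCCTTTCCTCTggcgg
Rpl38 (chr11:114668568-114668597, plus strand): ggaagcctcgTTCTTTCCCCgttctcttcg
Rplp2 (chr7:141447639-141447668, plus strand): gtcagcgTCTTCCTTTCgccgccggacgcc
Rps27 (chr3:90213631-90213660, minus strand): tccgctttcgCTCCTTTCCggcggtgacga
Rps24 (chr14:24490666-24490695, plus strand): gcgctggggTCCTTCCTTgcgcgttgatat
Rpl10 (chrX:74270804-74270833, plus strand): gttacagTggaagataggccgcctatataa
The annotated start can lie off the main start in muscle, and a window without a run says only that these letters are not there. Within 250 bases before the start, the ETS core CCGGAAG stood on either strand in 18 of the 60 genes (30.0%), against 12.8% of all genes. AAGATGGC, a YY1-type motif, stood in 3 of 60 (5.00%), against 2.02%. TATAAA stood in 4 of 60 (6.67%), against 9.42%. A match to such letters is a description of the sequence and not a binding site.

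FPKM sums per mouse lay between 470634 and 513468, and the deepest library was 1.23 times as deep as the shallowest by the size of the steps between low values. Read counts were not used here, so the precision of each value rests on the spread between mice. Ribosomal protein genes have many processed pseudogenes and some close paralogs. No source used here says how reads shared with such copies were assigned, so their absolute levels are uncertain. The RNA is that of a whole muscle, in which fewer cells of a type and less RNA per cell cannot be told apart.

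Ribosomal protein transcripts were abundant and close to each other in level. On the FPKM scale, which is per length, the median gene averaged 233.6 FPKM over the 16 mice, against 7.12 FPKM for the median of all tested genes. Of the 80, 68 lay within 2-fold of their own median, 73 averaged at least 100.0 FPKM, 32 were among the 200 highest genes of the table, and 0 lay below the median of all tested genes. The highest was Rps27, a small subunit protein with a zinc finger, at 603 ± 60.5 FPKM (SD, n = 16). Also high were Rpl23a, at the exit of the peptide tunnel, at 474 ± 22.0 FPKM, and Rpl4, which lines that tunnel, at 448 ± 31.1 FPKM. Rpl26 averaged 428 ± 18.1 FPKM and Rps24, needed for processing of small subunit RNA, 389 ± 55.2 FPKM. The ranges of 1 SD around the means of Rpl23a and Rpl4 overlapped, and Rps27 stood above both.

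The lowest levels belonged to members of paralog pairs and to Rpl15. Rpl7l1, a relative of Rpl7, averaged 12.9 ± 1.32 FPKM. Rpl3, which reaches to the peptidyl transferase centre, averaged 40.5 ± 4.50 FPKM and Rpl22 47.2 ± 3.75 FPKM, with ranges of 1 SD around the mean that overlapped. Rpl15, at the core of the large subunit, averaged 63.5 ± 3.53 FPKM. The 3 lowest genes each have a paralog in the table, described further on.

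**Figure D1:**
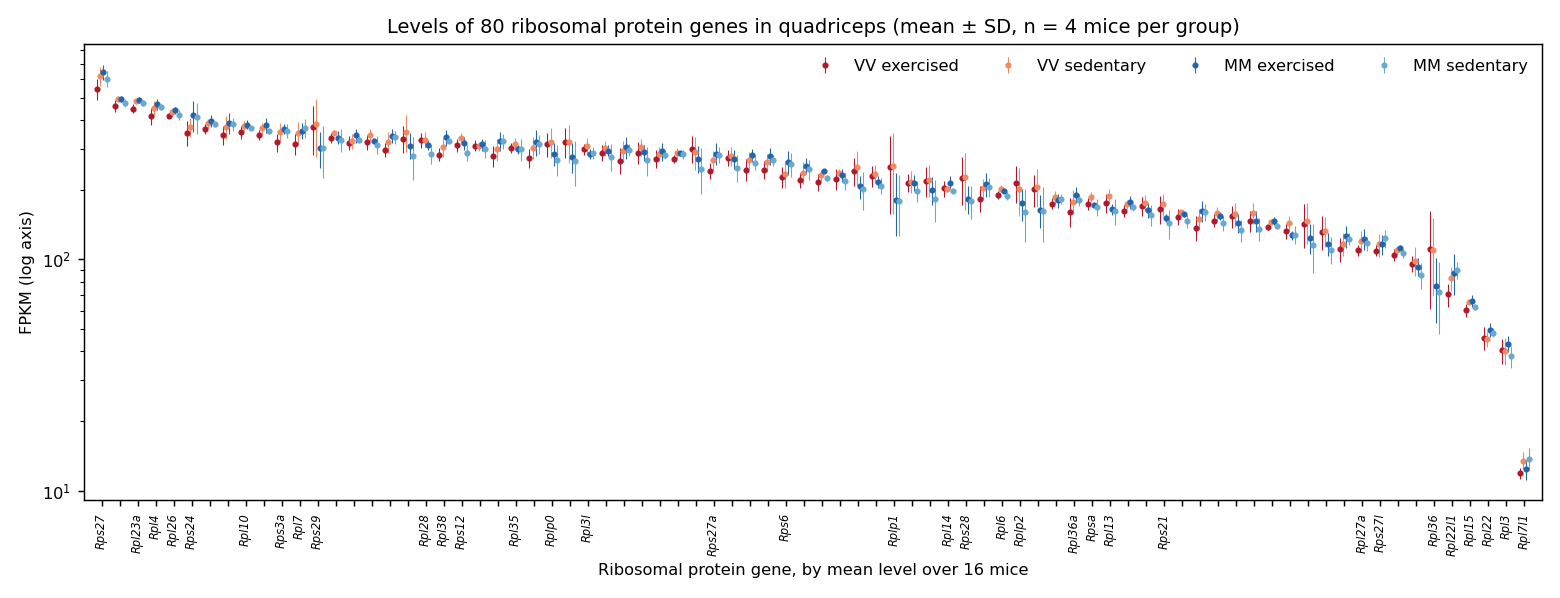
FPKM of the 80 ribosomal protein genes (log axis), ordered by mean level over 16 mice, with the mean of each group as a point and its SD as a bar (n = 4 mice), named on the axis where the text describes the gene, in the order exercised VV, sedentary VV, exercised MM and sedentary MM. The 4 groups lie close together in most genes, bars are long in Rpl36, Rplp1 and Rps29, and Rpl7l1, Rpl3, Rpl22 and Rpl15 form the low end.

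Summed, the 80 genes held about 4% of all FPKM in every group, and the share moved little. It was 3.92, 3.99, 3.59 and 3.90% in exercised VV mice and 4.08, 4.00, 4.10 and 3.95% in sedentary VV mice. In exercised MM (WT) mice it was 4.03, 4.00, 3.95 and 4.06%, against 3.83, 3.92, 3.82 and 3.87% in sedentary MM (WT) mice. The share of every exercised MM mouse lay above that of every sedentary MM mouse, and so did the share of every sedentary VV mouse. Exercised and sedentary VV mice overlapped, and 1 exercised VV mouse, 2296-2, had the lowest share of all 16. The 10 highest genes of the table held 28.9 to 33.4% of the FPKM sum. With these left out of the sum the share was 5.39 to 5.85% in exercised VV, 5.84 to 6.04% in sedentary VV, 5.67 to 5.95% in exercised MM and 5.39 to 5.78% in sedentary MM mice. On that scale sedentary VV mice still lay above sedentary MM mice, whereas exercised MM mice overlapped sedentary MM mice. The shares are descriptions and were not tested.

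After exercise in MM (WT) mice, no ribosomal protein gene passed the test. The test was limma on log2(FPKM + 0.1) over all 10519 genes with Benjamini-Hochberg adjustment at 0.05, and 0 of 80 passed it, against 1.23% of all tested genes. At an unadjusted p under 0.05 the count was also 0 of 80, against 10.7% of all tested genes, whereas it was 7 with median-ratio scaling, 3 after adjustment for GC content, described further on, and 3 without sedentary MM mouse 2127-3. The median log2 fold change, exercised over sedentary MM, was 0.06 for the 80 genes and -0.05 for all tested genes. Of all tested genes 37.5% lay above 0, against 72 of the 80, with 8 below (77 above with median-ratio scaling and 56 above with quantile normalization). Extremes were -0.15 for Rpl7l1 and 0.19 for Rpl3. The 95% interval of the log2 fold change lay within 0.5 on either side of 0 for 75 of the 80 genes, with a median reach of 0.19 on each side.

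The gene with the smallest p for exercise in MM mice was Rps12, a small subunit protein. It had 338, 322, 287 and 323 FPKM in exercised MM (WT) mice, against 267, 273, 294 and 318 FPKM in sedentary MM (WT) mice, a log2 fold change of 0.14 (SE 0.07, adjusted p = 0.504). Both groups overlapped. Rpl14 of the large subunit had 213, 196, 222 and 228 FPKM in exercised MM (WT) mice, against 199, 199, 194 and 199.7 FPKM in sedentary MM (WT) mice, a log2 fold change of 0.12 (SE 0.06, adjusted p = 0.56). Rpl28 had 334, 311, 299 and 308 FPKM in exercised MM (WT) mice, against 252, 299, 277 and 316 FPKM in sedentary MM (WT) mice, a log2 fold change of 0.13 (SE 0.08, adjusted p = 0.589). Of the exercised mice, 1 of 4 lay within the sedentary range for Rpl14 and 3 of 4 for Rpl28. Rpl3 had 40.1, 48.2, 42.1 and 42.7 FPKM in exercised MM (WT) mice, against 34.1, 35.7, 38.7 and 43.7 FPKM in sedentary MM (WT) mice, a log2 fold change of 0.19 (SE 0.11, adjusted p = 0.576).

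After exercise in VV mice, 0 of 80 genes passed as well, against 0.276% of all tested genes, and 0 of 80 had an unadjusted p under 0.05, against 10.1%. The median log2 fold change, exercised over sedentary VV, was -0.09 for the 80 genes and -0.08 for all tested genes, so the ribosomal protein genes sat where the table as a whole sat. Of the 80, 7 lay above 0 and 73 below, against 26.3% of all tested genes above 0. Median-ratio scaling divides each mouse by the median ratio of all its genes to their means. With it, 38 of the 80 lay above 0 and 42 below and the median was -0.0030. The 95% interval lay within 0.5 of 0 for 76 of the 80. Without mouse 2296-2 the median was -0.05, with 19 above 0 and 61 below. Without 2296-3 it was -0.09, and 13 genes had an unadjusted p under 0.05. Without 2296-5, or with sample weights, there were 5 such genes.

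Rps27, the highest of the genes, had 515, 551, 496 and 624 FPKM in exercised VV mice, against 694, 635, 595 and 552 FPKM in sedentary VV mice, a log2 fold change of -0.18 (SE 0.09, adjusted p = 0.516). Rpl23a had 444, 445, 427 and 477 FPKM in exercised VV mice, against 465, 496, 487 and 484 FPKM in sedentary VV mice, a log2 fold change of -0.11 (SE 0.05, adjusted p = 0.52). Exercised and sedentary VV mice overlapped in both genes, with mouse 2296-2 the lowest. Rps3a had 318, 321, 288 and 357 FPKM in exercised VV mice, against 398, 358, 345 and 324 FPKM in sedentary VV mice, a log2 fold change of -0.15 (SE 0.08, adjusted p = 0.539). Rpl22l1, the paralog of Rpl22, had 61.8, 68.5, 70.7 and 81.2 FPKM in exercised VV mice, against 95.7, 78.9, 84.3 and 73.0 FPKM in sedentary VV mice, a log2 fold change of -0.23 (SE 0.12, adjusted p = 0.551), the lowest of the 80.

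Whether the exercise effect differs between VV and MM mice was tested as a difference of log2 fold changes, and 0 of 80 genes passed, against 0% of all tested genes. At an unadjusted p under 0.05, 5 of 80 were lower, against 1.52% of all tested genes, and the smallest adjusted p was 0.9997. Leaving out single mice gave 0 (without exercised VV mouse 2296-2) to 14 genes (without exercised VV mouse 2296-3) at that unadjusted threshold in either direction, with 2 to 7 without any 1 of the other mice. The count was 1 with median-ratio scaling, without the 10 highest genes in the FPKM sum or with plain eBayes (no trend or robust setting), 0 with quantile normalization, 2 after GC adjustment, and 10 with sample weights or no filter on low values. The median difference, the log2 fold change in VV minus that in MM, was -0.14 for the 80 genes and -0.04 for all tested genes. The difference lay below 0 for 79 of the 80 genes, Rps27l being the 1 above, and above 0 for 37.7% of all tested genes. With median-ratio scaling it lay below 0 for 74 of 80, with quantile normalization for 68 and after adjustment for GC content for 68. The 80 genes vary together between mice, as described further on, so these counts are not of separate observations. The 95% interval lay within 0.5 of 0 for 62 of the 80, with a median reach of 0.27 on each side, so a difference of the size of the median could not be told from 0 in a single gene. Both comparisons within a genotype enter this difference, so their signs are not further support for it.

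Rps12 had the smallest p of the difference, at -0.25 (SE 0.10, adjusted p = 0.9997). In VV mice its values were 340.0, 307, 294 and 302 FPKM with exercise, against 323, 321, 359.7 and 335 FPKM sedentary. Rpl6, a large subunit protein, had a difference of -0.17 (SE 0.08, adjusted p = 0.9997). It had 191, 189.9, 179 and 197 FPKM in exercised VV mice, 204, 201, 211 and 193 in sedentary VV mice, 198, 195, 201 and 198 in exercised MM (WT) mice and 179.8, 191, 185 and 195 in sedentary MM (WT) mice. Every exercised MM mouse lay above every sedentary MM mouse for Rpl6, and the VV groups overlapped. Rps27 had a difference of -0.27 (SE 0.12, adjusted p = 0.9997), with 575, 639, 677 and 684 FPKM in exercised MM mice, against 651, 634, 566 and 561 FPKM in sedentary MM mice. Rpl15 had a difference of -0.19 (SE 0.09, adjusted p = 0.9997). It had 61.7, 62.1, 54.7 and 63.0 FPKM in exercised VV mice, 65.9, 64.2, 65.1 and 65.5 in sedentary VV mice, 64.8, 67.2, 61.3 and 71.0 in exercised MM (WT) mice and 61.9, 61.7, 60.9 and 64.9 in sedentary MM (WT) mice. Every exercised VV mouse lay below every sedentary VV mouse for Rpl15, whereas the MM groups overlapped.

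**Figure D2:**
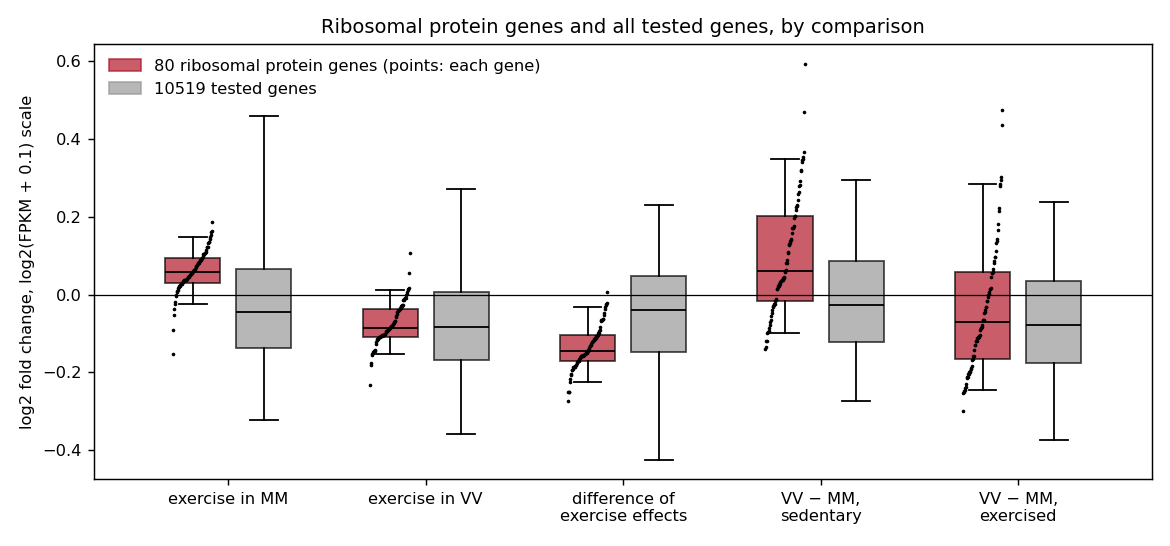
Log2 fold change of the 80 ribosomal protein genes (red boxes, with a point for each gene) and of all 10519 tested genes (grey boxes) in 5 comparisons, each box with the median as a line, the quartiles as its ends and whiskers from the 5th to the 95th percentile. The 80 sit mostly above 0 for exercise in MM and below 0 for exercise in VV and for the difference, with a spread within that of all genes, and both genotype comparisons have a tail of high values.

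Between sedentary VV and sedentary MM mice 0 of 80 genes passed, against 0.00951% of all tested genes. At an unadjusted p under 0.05, 10 of 80 were higher in VV and 0 lower, against 2.11% of all tested genes higher. In either direction the count was 1 without sedentary MM mouse 2032-3 or without sedentary VV mouse 2126-4, 3 without sedentary VV mouse 2296-5, 4 without sedentary MM mouse 2127-1, 5 without sedentary MM mouse 2074-1 and 6 without sedentary VV mouse 2074-5. It was 27 without sedentary MM mouse 2127-3 and 30 without sedentary VV mouse 2074-2. With all mice it was 3 with quantile normalization, 4 with plain eBayes and 5 with the compared groups fitted alone. It was 9 after GC adjustment, 18 with the title number as a random block and 16 with both. The median log2 fold change, VV over MM, was 0.06 for the 80 genes and -0.03 for all tested genes. Of the 80, 57 lay above 0 and 23 below, against 43.0% of all tested genes above 0. With median-ratio scaling 64 of the 80 lay above 0, with quantile normalization 52 and after GC adjustment 74. Rps12 had 323, 321, 359.7 and 335 FPKM in sedentary VV mice, against 267, 273, 294 and 318 FPKM in sedentary MM (WT) mice, a log2 fold change of 0.22 (SE 0.07, adjusted p = 0.835). Every sedentary VV mouse lay above every sedentary MM mouse for Rps12. Rps21 of the small subunit had 159, 159, 198 and 178 FPKM in sedentary VV mice, against 121, 137, 145 and 169 FPKM in sedentary MM (WT) mice, a log2 fold change of 0.28 (SE 0.11, adjusted p = 0.835). Rpl13 had 175, 178, 198 and 201 FPKM in sedentary VV mice, against 136, 157, 167 and 185 FPKM in sedentary MM (WT) mice, a log2 fold change of 0.23 (SE 0.09, adjusted p = 0.835). The groups overlapped in both, through sedentary MM mouse 2127-3. Rpl28 had 289, 337, 348 and 341 FPKM in sedentary VV mice, against 252, 299, 277 and 316 FPKM in sedentary MM (WT) mice, a log2 fold change of 0.20 (SE 0.08, adjusted p = 0.835).

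Between exercised VV and exercised MM mice 0 of 80 genes passed, against 0% of all tested genes. At an unadjusted p under 0.05, 17 of 80 were lower in VV and 0 higher, against 6.13% of all tested genes lower. In either direction it was 2 without exercised MM mouse 2297-3, 3 without exercised VV mouse 2296-2, 6 without 2161-5, 10 without 2161-7 and 31 without 2296-3. With all mice it was 1 after GC adjustment, 6 with median-ratio scaling, 10 with plain eBayes and 11 with quantile normalization. The median log2 fold change was -0.07 for the 80 genes and -0.08 for all tested genes. Of the 80, 28 lay above 0 and 52 below, against 31.2% of all tested genes above 0. With median-ratio scaling 40 lay above 0 and 40 below, and after adjustment for GC content 50 above and 30 below, so the direction depended on the scaling. Rpl38, a small protein of the large subunit whose loss in mice disturbs the patterning of the axial skeleton, had the smallest p. It had 280.9, 307, 262 and 285 FPKM in exercised VV mice, against 309, 319, 355 and 365 FPKM in exercised MM (WT) mice, a log2 fold change of -0.25 (SE 0.08, adjusted p = 0.627). Every exercised VV mouse lay below every exercised MM mouse for Rpl38, the gene of which lies at chr11:114668524-114672331 (GRCm38). After adjustment for GC content its log2 fold change was -0.11.

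Rps27 had 515, 551, 496 and 624 FPKM in exercised VV mice, against 575, 639, 677 and 684 FPKM in exercised MM (WT) mice, a log2 fold change of -0.24 (SE 0.09, adjusted p = 0.627). Rps27a, which is made as a fusion with ubiquitin, had 227, 235, 233 and 271 FPKM in exercised VV mice, against 253, 272, 297 and 324 FPKM in exercised MM (WT) mice, a log2 fold change of -0.24 (SE 0.09, adjusted p = 0.627). Rpl36a had 155, 155, 140.1 and 193 FPKM in exercised VV mice, against 185, 179.6, 185 and 212 FPKM in exercised MM (WT) mice, a log2 fold change of -0.25 (SE 0.10, adjusted p = 0.627). In these 3 genes, mouse 2296-3 of the exercised VV group lay within the exercised MM range and the other 3 mice lay low.

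With both genotypes averaged, 0 of 80 genes passed the test of exercise, against 3.14% of all tested genes. At an unadjusted p under 0.05 only Rpl7l1 was lower, 1 of 80 against 12.9% of all tested genes. Its log2 fold change was -0.16 (SE 0.07, adjusted p = 0.209), and its values were 11.8, 11.2, 12.7 and 12.0 FPKM in exercised VV mice, 14.3, 14.3, 11.9 and 13.5 in sedentary VV mice, 11.1, 11.5, 13.4 and 13.3 in exercised MM (WT) mice and 15.9, 12.4, 13.9 and 12.9 in sedentary MM (WT) mice. Both exercised groups overlapped their sedentary groups. The median over the 80 was -0.01, against -0.06 for all tested genes. Above 0 lay 33 of the 80, with 47 below, against 29.5% of all tested genes above 0. With median-ratio scaling 74 of the 80 lay above 0, and without exercised VV mouse 2296-2 it was 43. Of the 80, 78 had a 95% interval within 0.5 of 0. With both activities averaged, 0 of 80 passed for VV against MM, against 0.00951% of all tested genes. At an unadjusted p under 0.05, 10 of 80 were higher in VV, against 3.47%, and 8 of 80 were lower, against 9.60%. Together these were 18 genes, and leaving out 1 mouse gave between 6 (without 2161-5 or 2032-3) and 41 (without 2074-2). The count was 7 to 10 without 2161-7, 2126-4, 2296-5, 2246-4 or 2297-3, and 30 to 40 without 2296-3, 2161-4 or 2127-3. It was 11 with plain eBayes and 28 with sample weights.

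Mice within a group differed from each other in a pattern common to many of these genes. In a principal component analysis of the 80 genes, the first axis held 80.9% of the variance over the 16 mice and the second 9.39%. The genes that carried the first axis were Rpl36 (weight 0.392), Rplp1 (0.346), Rps29 (0.245) and Rplp2 (0.225) at one end and Rps24 (-0.124), Rps6 (-0.110) and Rpl22l1 (-0.104) at the other. Rplp1 and Rplp2 are the acidic stalk proteins, and Rps6 is the ribosomal protein that S6 kinases phosphorylate. The log2 values were centred but not scaled for this, so genes that vary more weigh more on the axis by construction. The first 4 genes had the largest spread within groups, a pooled SD on the log2 scale of 0.571 for Rpl36, 0.517 for Rplp1, 0.363 for Rps29 and 0.321 for Rplp2, against a median of 0.129 and a lowest of 0.0440 over the 80.

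Rpl36 had 179, 115, 89.3 and 60.8 FPKM in exercised VV mice, 62.7, 89.7, 141 and 147 in sedentary VV mice, 106, 81.3, 72.0 and 48.1 in exercised MM (WT) mice and 40.3, 67.3, 84.4 and 97.6 in sedentary MM (WT) mice. Its highest mouse was 2161-5, of exercised VV, and its lowest 2032-3, of sedentary MM. Rplp1 had 366, 278, 199 and 156 FPKM in exercised VV mice, 134, 214, 334 and 336 in sedentary VV mice, 249, 202, 137 and 137 in exercised MM (WT) mice and 116, 165, 189 and 242 in sedentary MM (WT) mice. Rps29, a zinc-binding protein of the small subunit, had 487, 387, 340.4 and 275 FPKM in exercised VV mice, 259, 331, 473 and 478 in sedentary VV mice, 361, 334, 266 and 250.2 in exercised MM (WT) mice and 199.7, 299, 326 and 382 in sedentary MM (WT) mice. Rplp2 had 268, 213, 205 and 173 FPKM in exercised VV mice, 146, 178, 240.3 and 241 in sedentary VV mice, 213, 175, 161 and 149 in exercised MM (WT) mice and 103, 158, 179 and 200.3 in sedentary MM (WT) mice. Mouse 2161-5 was the highest and mouse 2032-3 the lowest of the 16 in all 4 genes, and the 4 groups overlapped throughout. Log2 fold changes of VV over MM, averaged over activities, were 0.53 (SE 0.26, adjusted p = 0.381) for Rpl36 and 0.45 (SE 0.23, adjusted p = 0.382) for Rplp1. Rps29 gave 0.32 (SE 0.16, adjusted p = 0.383) and Rplp2 0.32 (SE 0.14, adjusted p = 0.381). Rps24 ran the other way, with 320.0, 341, 331 and 419.7 FPKM in exercised VV mice, 418, 385, 353 and 338 in sedentary VV mice, 356, 389, 430.1 and 502 in exercised MM (WT) mice and 504, 403, 369 and 371 in sedentary MM (WT) mice. Rps6 did too, with 214, 235, 204 and 257 FPKM in exercised VV mice, 277, 238, 216 and 206 in sedentary VV mice, 229.6, 244, 274 and 301 in exercised MM (WT) mice and 292, 273, 242 and 223 in sedentary MM (WT) mice.

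The axis followed the base composition of the genes. The weight of a gene on the first axis correlated with the GC content of its coding sequence at r = 0.82 across the 80 genes, with coding length at r = -0.14 and with mean level on the log2 scale at r = -0.09. Genes are not independent replicates, and these are descriptions. Coding GC content ran from 39.6% in Rpl22l1 to 61.3% in Rpl36, with a median of 52.3%, against 52.7% for all tested genes. To show the contrast, the first 150 coding bases of a pair of genes from the high end and a pair from the low end follow, from GENCODE M21 transcripts (GRCm38), 5′ to 3′, with G and C in capitals.
Rps28 (gene at chr17:33819027-33824562): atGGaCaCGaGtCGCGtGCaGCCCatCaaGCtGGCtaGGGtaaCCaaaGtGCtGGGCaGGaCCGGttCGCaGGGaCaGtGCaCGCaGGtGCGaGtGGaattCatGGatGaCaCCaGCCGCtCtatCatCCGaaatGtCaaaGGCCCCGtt
Rplp2 (gene at chr7:141447370-141451585): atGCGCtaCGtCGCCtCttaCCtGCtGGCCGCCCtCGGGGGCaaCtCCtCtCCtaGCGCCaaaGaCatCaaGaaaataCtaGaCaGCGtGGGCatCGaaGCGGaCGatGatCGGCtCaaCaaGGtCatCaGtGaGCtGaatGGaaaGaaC
Rps24 (gene at chr14:24487125-24496959): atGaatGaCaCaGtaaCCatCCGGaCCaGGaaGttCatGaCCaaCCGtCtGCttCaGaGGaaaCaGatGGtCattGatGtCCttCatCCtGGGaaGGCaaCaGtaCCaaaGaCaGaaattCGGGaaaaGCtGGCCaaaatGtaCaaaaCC
Rpl22l1 (gene at chr3:28805436-28807424): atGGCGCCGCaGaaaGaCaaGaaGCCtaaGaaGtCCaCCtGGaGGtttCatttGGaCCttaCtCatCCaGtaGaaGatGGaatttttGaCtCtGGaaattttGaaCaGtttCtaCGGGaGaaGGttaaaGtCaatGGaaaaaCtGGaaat
G and C made up 58.0% of this stretch in Rps28, 55.3% in Rplp2, 46.0% in Rps24 and 41.3% in Rpl22l1. These genes were picked as examples, and this stretch does not follow the axis in every gene. In Rps6, at the low end, it held 56.7% G and C, and in Rps26, toward the high end, 54.7%.

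The same slope on GC content ran through the rest of the transcriptome of each mouse. Over the 9806 other tested genes with a coding GC content, the slope of a mouse's deviation from the mean of all mice ran from -0.30 log2 units for each 10 points of GC in 2032-3 to 0.25 in 2161-5. In the 80 ribosomal protein genes it ran from -0.62 to 0.51 in the same mice. The slopes in both sets correlated at r = 0.99 over 16 mice, and the place of a mouse on the first axis correlated with the slope in the other genes at r = 0.99. The points share their libraries, and no p is given. Mean slopes in the other genes were 0.087 in exercised VV, 0.046 in sedentary VV, -0.040 in exercised MM and -0.094 in sedentary MM mice. All VV mice had a mean slope of 0.067 and all MM mice of -0.067. The difference of 0.133 had a two-sided exact permutation p of 0.0721 over 12870 splits, and 0.361 after Benjamini-Hochberg adjustment over 5 comparisons. This test was chosen after seeing the data. The other 4 comparisons had exact p between 0.200 and 0.714. The part of base composition in the genotype differences was not tested beyond the adjustment given next.

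**Figure D3:**
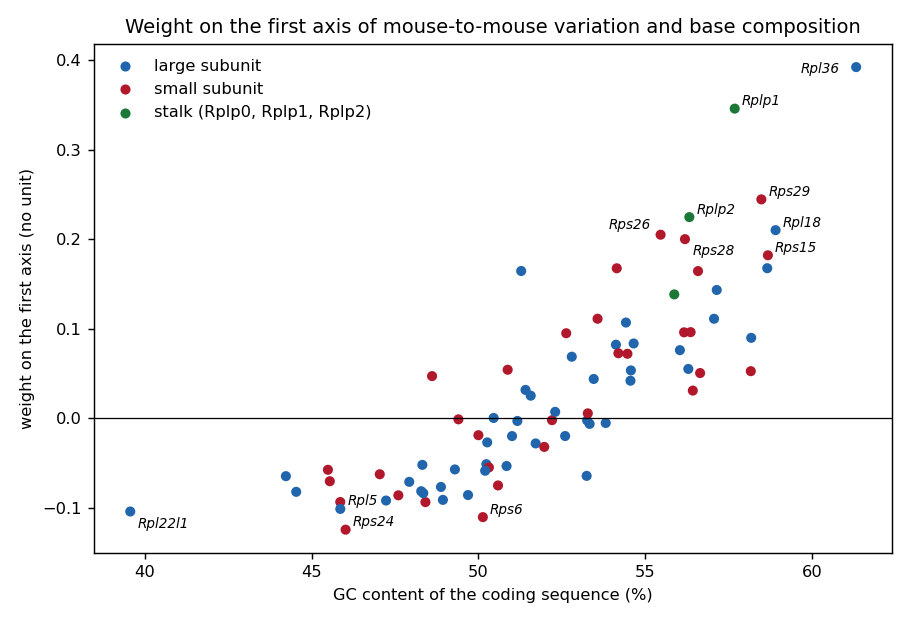
Weight of each of the 80 ribosomal protein genes on their first axis (no unit) against the GC content of its coding sequence in percent, coloured by large subunit, small subunit and stalk, with the genes at both ends named. Weights rise with GC content (r = 0.82), with Rpl36 and Rplp1 at the top and Rps24 and Rps6 at the bottom.

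Genotype differences among the 80 were therefore read by GC content. In the 40 genes richest in GC the median log2 fold change of sedentary VV over sedentary MM was 0.19 with 40 of 40 above 0, and in the 40 poorest it was -0.02 with 17 above and 23 below. For exercised VV over exercised MM it was 0.06 in the 40 richest, with 27 above and 13 below, and -0.17 in the 40 poorest, with 1 above and 39 below. Exercise split less by GC content. In MM mice the medians were 0.08 in the 40 richest and 0.04 in the 40 poorest, and in VV mice -0.04 and -0.10 in the same order. Over the 80 genes, log2 fold change correlated with coding GC content at r = 0.80 for VV over MM in sedentary and 0.81 in exercised mice, 0.42 for exercise in MM and 0.63 for exercise in VV. By subunit, for sedentary VV over sedentary MM the median was 0.03 in large subunit genes and 0.12 in small subunit genes, whereas the 3 stalk genes lay between 0.26 and 0.47.

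**Figure D4:**
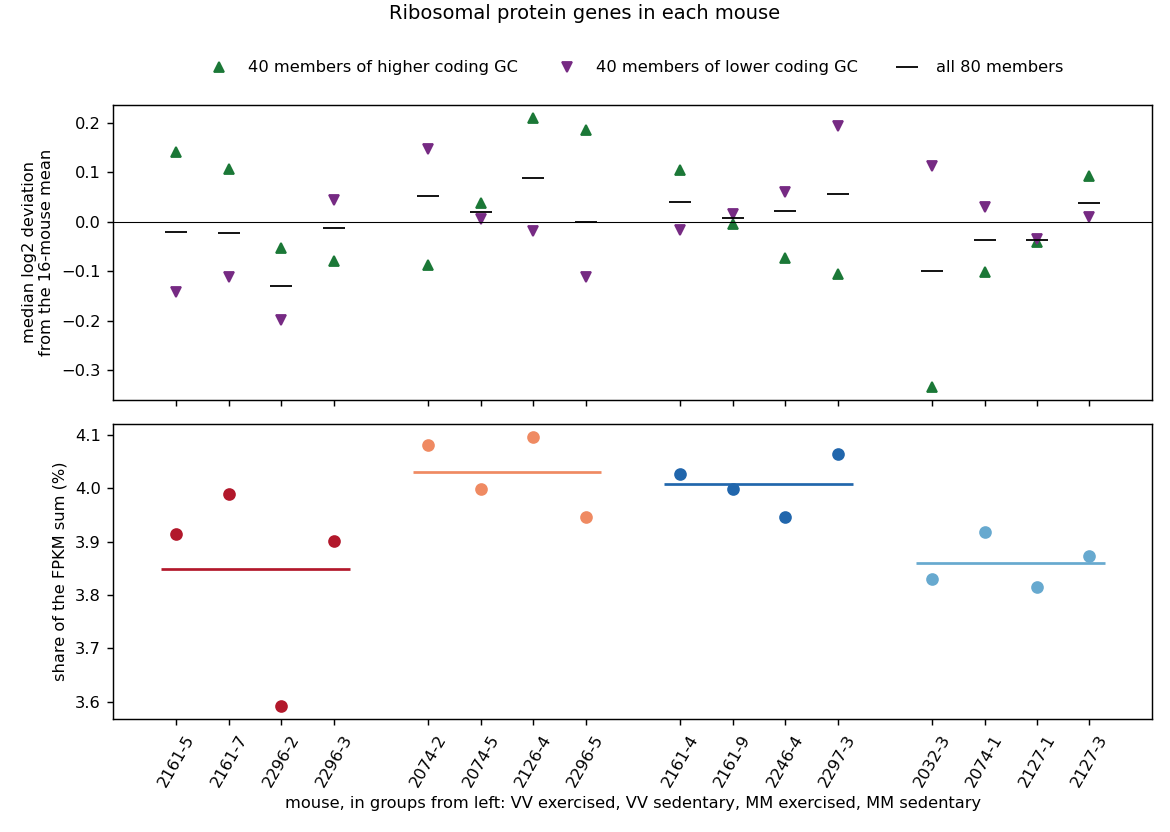
Above, the median log2 deviation from the mean of 16 mice of the 40 ribosomal protein genes of higher coding GC content (green), of the 40 of lower (purple) and of all 80 (line) in each mouse. Below, their share of the FPKM sum in percent with group means as lines, exercised VV, sedentary VV, exercised MM and sedentary MM from left to right. Both sets of 40 move apart in opposite directions in many mice, and 2296-2 has the lowest share.

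Each mouse's dependence on GC content was then fitted and subtracted by a spline over the 9886 tested genes with a coding GC content. With this adjustment, chosen after seeing the data, 0 of 80 genes passed in any comparison. The median pooled SD of the 80 was 0.0938 after and 0.129 before the adjustment, lower in 57 of the 80. In the 9806 other genes it was 0.160 after and 0.188 before, lower in 7360, so the drop was not particular to the 80. Median log2 fold changes of the 80 were then 0.07 for exercise in MM, -0.02 for exercise in VV, 0.09 for VV over MM in sedentary and 0.02 in exercised mice. The correlation of log2 fold change with coding GC content stayed at 0.54 for VV over MM in sedentary and 0.63 in exercised mice, so the spline removed part of it.

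Some ribosomal proteins have a paralog, which in some pairs can take their place in the ribosome. The ratio within a pair does not depend on the total of the group. It can still vary with the GC slope of a mouse where the partners differ in coding GC content. That content was 56.3% in Rpl3l and 51.6% in Rpl3, 39.6% in Rpl22l1 and 48.3% in Rpl22, and 45.5% in Rps27l and 50.6% in Rps27. The ratios were not adjusted for GC content. The best known paralog in muscle is Rpl3l (chr17:24727820-24736143), which is expressed in striated muscle in place of Rpl3 (chr15:80077791-80091868). Rpl3l averaged 295 FPKM over the 16 mice, against 40.5 FPKM for Rpl3. The ratio of Rpl3l to Rpl3 was 7.48 ± 0.894 in exercised VV, 7.76 ± 1.41 in sedentary VV, 6.62 ± 0.613 in exercised MM and 7.64 ± 0.406 in sedentary MM mice (SD, n = 4 each). Its log2 value differed by -0.21 between exercised and sedentary MM mice, the smallest p of all pairs, at 0.0571 by an exact two-sided permutation test and 0.571 after adjustment over 20 tests. In the single genes, Rpl3l had 297, 289, 266 and 289.8 FPKM in exercised MM (WT) mice, against 268, 286, 293 and 310.0 FPKM in sedentary MM (WT) mice, so the groups overlapped in both partners.

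Rpl22l1 averaged 82.7 FPKM and Rpl22 47.2 FPKM. The ratio was 1.55 ± 0.211 in exercised VV, 1.83 ± 0.0839 in sedentary VV, 1.77 ± 0.344 in exercised MM and 1.86 ± 0.0822 in sedentary MM mice. Both sedentary groups were narrow and both exercised groups wide. In VV mice the log2 ratio differed by -0.25 with exercise (exact permutation p = 0.0857, 0.571 adjusted). Rps27l, known as a target of p53, averaged 116 FPKM against 603 FPKM for Rps27, with a ratio of 0.201 ± 0.0175 in exercised VV, 0.188 ± 0.0209 in sedentary VV, 0.180 ± 0.0120 in exercised MM and 0.205 ± 0.0180 in sedentary MM mice. In MM mice its log2 value differed by -0.18 with exercise (exact permutation p = 0.0857, 0.571 adjusted).

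Rpl7l1 stayed at 0.0344 to 0.0385 of Rpl7 in the group means, and Rpl36al, at 1.11 to 1.19 times Rpl36a, was the 1 pair with near equal levels. None of the 20 tests passed, and the smallest p that 4 against 4 mice allow is 0.0286. Rpl36al and Rpl36a are alike enough in sequence that reads may have been shared between them. Rpl10l and Rps4l were not analysed here.

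**Figure D5:**
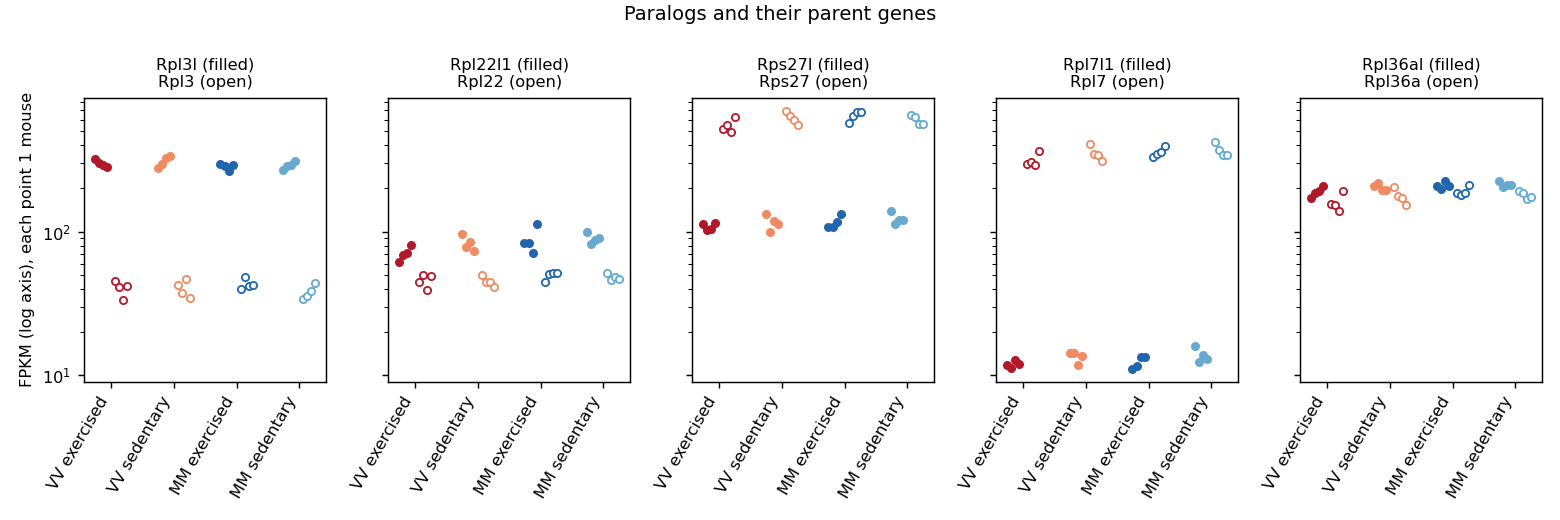
FPKM (log axis) of 5 paralogs (filled points) and their parent genes (open points) in each mouse, in exercised VV, sedentary VV, exercised MM and sedentary MM from left to right. Rpl3l lies above Rpl3 and Rpl22l1 above Rpl22 in all 16 mice, Rps27l and Rpl7l1 lie below their parents, and the groups overlap.

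Other parts of the translation machinery were read from lists of genes. The elongation factors (8 tested genes), initiation factors with poly(A)-binding protein (36), proteins that work at the ribosome or are encoded together with ribosomal proteins (11) and the mTORC1 and S6 kinase pathway (27) gave 0 genes past the test in all 7 comparisons, except 1. Sesn1, a stress-induced inhibitor of mTORC1, rose with exercise when both genotypes were averaged, 1 of the 27 genes of its list against 3.14% of all tested genes. It had 16.8, 17.9, 17.2 and 16.1 FPKM in exercised VV mice, against 15.7, 10.1, 10.7 and 14.5 FPKM in sedentary VV mice, and 15.7, 17.9, 16.7 and 16.3 FPKM in exercised MM mice, against 11.6, 16.6, 11.2 and 10.7 FPKM in sedentary MM mice. The log2 fold change was 0.43 (SE 0.10, adjusted p = 0.026), and within each genotype it did not pass (adjusted p = 0.224 in MM and 0.299 in VV). Every exercised VV mouse lay above every sedentary VV mouse, and in MM mice 1 sedentary mouse lay within the exercised range. The call was lost without any 1 of mice 2161-7, 2074-5, 2126-4, 2161-9, 2127-1 and 2127-3, at adjusted p of 0.0521 to 0.0599, and with the number in the mouse's title as a random block, at 0.0919, or at 0.0505 with the block and GC adjustment together.

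Eef1a1, which brings tRNAs to the ribosome and has a 5′TOP start itself, had 291, 325, 300.4 and 349 FPKM in exercised MM mice, against 259.6, 256, 234 and 273 FPKM in sedentary MM mice. Its log2 fold change was 0.31 (SE 0.11, adjusted p = 0.255), and for exercised VV over exercised MM it was -0.29 (SE 0.11, adjusted p = 0.627). Median log2 fold changes for exercise in MM were 0.03 in elongation factors, -0.02 in initiation factors, -0.02 in ribosome partners and -0.01 in the mTORC1 list. In exercised VV over exercised MM mice they were -0.06, -0.06, -0.11 and -0.06 in that order.

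Marker genes of muscle fibres and of other cells are given beside these sums. Summed markers of fast fibres lay between 106754 and 140078 FPKM over the 16 mice and those of slow fibres between 538 and 1160 FPKM. Of 12 marker lists (fast and slow fibres, macrophages, neutrophils, lymphocytes, endothelium, fibroblasts, satellite cells, smooth muscle, adipocytes, red cells and Schwann cells), no list had a marker at 0 in all mice. Endothelial markers gave 2 of 10 past the test for exercise averaged over genotypes, against 3.14% of all tested genes, and no other list gave a call. The direction of these 2 is not reported here. Summed endothelial markers spanned 126.8 to 137.9 FPKM in exercised VV, 126.5 to 140.7 in sedentary VV, 126.4 to 143.9 in exercised MM and 126.5 to 146.6 in sedentary MM mice. Summed macrophage markers (8 tested) spanned 42.4 to 129.8 FPKM in exercised VV, 35.1 to 113.7 in sedentary VV, 63.9 to 147.7 in exercised MM and 45.6 to 78.7 in sedentary MM mice. Fibroblast markers spanned 351 to 575 FPKM in exercised VV, 301 to 578 in sedentary VV, 374 to 673 in exercised MM and 327 to 496 in sedentary MM mice. Lymphocyte markers summed to 0.267 to 1.63 FPKM and neutrophil markers to 0.0399 to 4.08 FPKM over all mice. All these sums overlapped between groups. Their part in the ribosomal protein values was not tested.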

How the data were processed

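Poly(A) RNA of whole quadriceps from 16 mice was sequenced as 100-base pairs with a stranded kit. The authors deposited FPKM values per gene for 18872 genes. Tools listed in the submitters' processing notes are Cuffdiff 2.2.1, StringTie, TopHat, SAMtools and FastQC, with build mm10, and the sources used here do not give the annotation. Groups came from the sample labels. Values of the 10519 genes that averaged 1 FPKM or more were transformed to log2(FPKM + 0.1), so changes of low genes are understated, and fitted with limma 3.58.1 in R 4.3.3 as 4 group means (lmFit, eBayes with trend and robust settings). Two-sided p values were adjusted by Benjamini-Hochberg over all tested genes. Paralog log2 ratios were compared by exact permutation over 70 splits of 8 mice. The members and lists were chosen with earlier results of these data known. Named genes are the 6 highest (1 is not reported here) and 4 lowest members, the 4 smallest p in each of the first 5 comparisons, paralogs with their parents, the 4 largest within-group SDs and, in other lists, genes that passed or had the smallest p. Rps6, Rps24, Rps28, Rplp2 for its sequence and Rpl27a, Rpl35, Rpl38 and Rpl10 for theirs, and Rpl7l1 for exercise averaged over genotypes were named after their values were seen. On simulated data for exercise in MM, 89 of 100 genes changed by 1 log2 unit and 97 of 100 changed by 2 were recovered. The simulated noise was drawn separately for each gene. Log2 fold changes of the 80 genes in that comparison ran only from -0.15 to 0.19, so the recovery does not speak to changes of that size. Coding sequences were GENCODE M21 and promoter windows RefSeq, which held 60 of the 80 genes. Rpl3, Rpl7, Rpl23a, Rpl36, Rplp1, Rps27a and Rps29 are among those with no entry. Alternatives were another pseudocount, other filters, scalings, eBayes settings and sample weights, the title number as a random block, fits of the compared groups alone, leaving out each mouse and, chosen after seeing the data, adjustment for GC content.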

Additional observations from a re-analysis of the deposited data

Results flagged for a closer look

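In 5 of 148 checks of 4 mice, 1 mouse stood apart from the other 3 by Dixon's criterion, a gap of more than 0.829 of the range of its group. Chance gives about 1 in 20. Rpl22 was lowest in exercised MM mouse 2161-4, with a gap of 0.894 of the range. Rpl15 was lowest in exercised VV mouse 2296-2, with a gap of 0.842, and this is the mouse with the lowest share of ribosomal protein transcripts. Rpl14 was lowest in sedentary MM mouse 2127-1, with a gap of 0.897. The log2 ratio of Rps27l to Rps27 was lowest in sedentary MM mouse 2074-1, with a gap of 0.943, and that of Rpl7l1 to Rpl7 was highest in exercised MM mouse 2246-4, with a gap of 0.927.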

How the results depend on the processing

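The count of ribosomal protein genes past the test was 0 in all 193 alternatives over the 7 comparisons, with a smallest adjusted p of 0.0782, for exercise averaged over genotypes with median-ratio scaling. Of 745 alternatives for named genes, 737 kept direction and side of the threshold, and the other 8 were all for Sesn1. Medians over the 80 genes moved by less than 1 SD between mice (0.0457) in 179 of 193. Both tallies include alternatives that cannot move a fold change, such as filters, eBayes settings and leaving out mice of groups not compared. They are therefore no measure of stability. The medians of -0.010 for exercise and -0.013 for genotype, each averaged, were smaller than that SD. A change of their sign could count as unmoved. With median-ratio scaling the median was -0.0030 for exercise in VV, 0.0041 for VV against MM in exercised mice, 0.050 for exercise averaged over genotypes and 0.039 for VV against MM averaged over activities. With quantile normalization it was -0.083 for the difference of exercise effects and -0.024 for VV against MM in exercised mice. With GC adjustment it was -0.016 for exercise in VV, -0.078 for the difference, 0.021 for VV against MM in exercised mice and 0.054 averaged over activities. With GC adjustment and the title number as a random block these were -0.028, -0.083, 0.017 and 0.055. The cause was not tested. Leaving out 1 mouse turned the direction of some paralog differences that had not passed. The log2 ratio of Rpl3l to Rpl3 ranged from -0.124 to 0.069 for exercise in VV and from -0.105 to 0.085 for VV against MM in sedentary mice. Rpl22l1 to Rpl22 ranged from -0.202 to 0.019 for exercise in MM. Rpl7l1 to Rpl7 ranged from -0.083 to 0.050 for exercise in VV and from -0.016 to 0.089 for sedentary VV against MM. Rpl36al to Rpl36a ranged from -0.030 to 0.084 for exercise in VV and from -0.074 to 0.032 for sedentary VV against MM. Of the share of all FPKM, the difference of sedentary VV over sedentary MM was 0.277 percentage points without the 10 highest genes and 0.171 with them. TATAAA stood in 2 genes within 100 bases of the start. Replicate numbers only follow accession order and pair no mice. Some mice of different groups share the number before the dash in the title, and with it as a random block the correlation was 0.231 and 0 of the 80 genes passed in every comparison. Exercised and sedentary MM mice share no such number, and only 2296 holds both exercised and sedentary mice. The block therefore cannot separate exercise from the title number in MM mice.

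The 95% interval of a log2 fold change between groups of 4 mice reached 0.19 on each side in the median gene of the 80 and 0.775 in the widest, and 0.27 and 1.10 for the difference of exercise effects. Values are shares of a library, so a change of all transcripts together would not be seen.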
